A study of Homo sapiens with 2 samples.

Results

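Phospholipase C (PLC) enzymes cut the membrane lipid PIP2 into IP3 and diacylglycerol (DAG), and 10 genes of this family were followed from Ramos to Ramos640 cells. They were taken by gene name from a table of 37122 genes, and comprised PLCB1, PLCB2, PLCB3, PLCB4, PLCG1, PLCG2, PLCD1, PLCD3, PLCL2 and PLCXD3. They were chosen by name and in part by their measured reads, since PLCB2 and PLCXD3 had almost none in Ramos640, so the fold changes of the members are a description and no test was made on them. Ramos is a human Burkitt's lymphoma (BL) cell line of B-cell origin. Ramos640 was derived from it by selection under rising concentrations of rituximab, an antibody to CD20, with normal human serum (NHS) as the source of complement, and resistance was kept up by exposure to rituximab and 20% NHS every 21 days. The sample labels state the rituximab dose as 640 mg/mL, while the study's methods state 640 μg/mL. Both cell lines grew in the same medium with fetal bovine serum. For each cell line, RNA from 3 passages was pooled into 1 library, so that no difference has a replicate check, and selection with rituximab cannot be told apart from the separate culture of the 2 cell lines. The sources do not say whether Ramos640 is 1 clone.

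IP3 opens calcium channels of the endoplasmic reticulum, while DAG recruits protein kinase C (PKC) and RasGRP factors to the membrane. In B cells, the antigen receptor activates PLCγ2 through the kinases SYK and BTK and the adaptor BLNK. The β enzymes answer to G protein-coupled receptors through Gq α subunits or through the βγ subunits of other G proteins, and the δ enzymes respond mainly to calcium. PLCL2 encodes a PLC-like protein without lipase activity, and PLCXD3 encodes a small protein with the X domain of the catalytic core only.

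The libraries held 38030090 reads (Ramos) and 30871826 reads (Ramos640). After division by size factors of 1.14 and 0.876, 1 was added to each normalized count, and the log2 of Ramos640 over Ramos is given as the log2 ratio (the log2 fold change of the plots). Its 95% interval rests on the Clopper-Pearson bounds of how a gene's reads split between the libraries, and covers counting error only. All 8 B cell markers examined had reads in both libraries, from 692 to 69495 in Ramos and from 83 to 82890 in Ramos640, although MS4A1, the gene of CD20, was lower in Ramos640 (9654 and 1904 reads) and CR2, a complement receptor, was lowest (1226 and 83 reads). Markers of other cells were sparse. The 9 T and NK cell markers summed to 55 reads in Ramos and 112 in Ramos640, with CD2, CD3D, CD8A and TRAT1 at 0 in both and CD3E at 1 and 31. The part of these sparse reads in the results was not tested. The 8 monocyte and macrophage markers summed to 50 and 25 reads, the 6 epithelial markers to 63 and 20, and the 5 platelet markers to 59 and 29, nearly all from GP1BA, with PF4, PPBP and GP9 at 0. The marker with most reads in Ramos was CD247 among the T and NK cell markers (25 and 58 reads), VCAN among those of monocytes (28 and 6), KRT5 among the epithelial ones (20 and 4) and GP1BA among those of platelets (55 and 26).

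Of the 10 members, 9 had at least 10 reads in the 2 libraries together. PLCB4 had no read in either library. None of the 9 was higher in Ramos640 by more than 1.5-fold, the fold used in the study, and 3 were lower by more than that, namely PLCXD3, PLCB2 and PLCD3. Of all 18778 genes with that many reads, 14.6% were higher by this fold and 17.3% lower (31.9% in either direction). By more than 2-fold, 0 members were higher and the same 3 lower, beside 6.64% and 8.75% of all genes. By an interval that excludes 0, 2 members were higher (PLCG1 and PLCL2) and 5 lower (PLCXD3, PLCB2, PLCD3, PLCD1 and PLCG2), beside 29.6% and 31.6% of all genes. The median log2 ratio was -0.43 over the 9 members and -0.015 over all genes with at least 10 reads. The member at the median was PLCD1, and over the 7 members with at least 100 reads the median moved to -0.11. PLCB2 and PLCXD3 were chosen in part for their low reads in Ramos640, so the counts of lower members and the medians hold that choice.

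**Figure D1:**
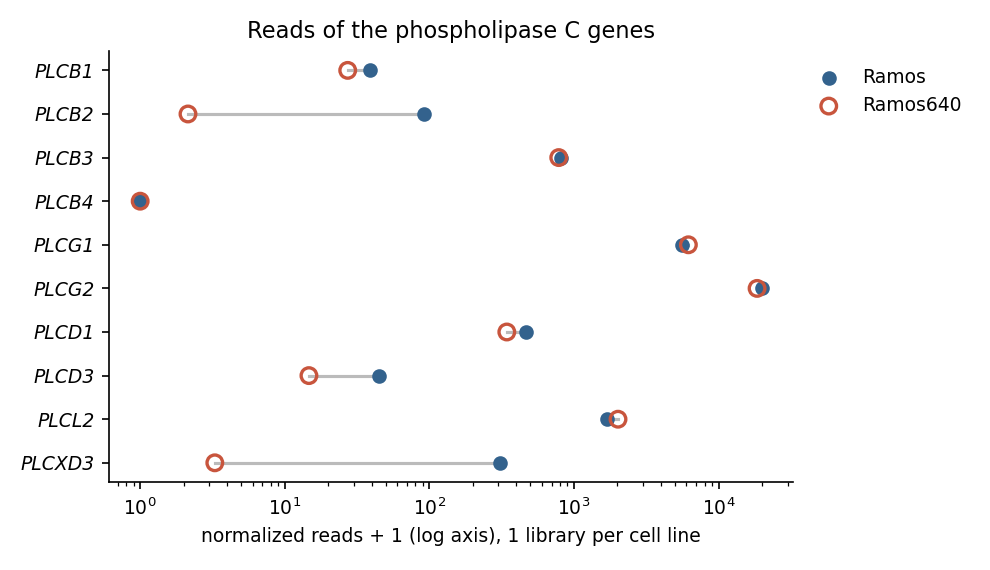
Normalized reads plus 1 (log axis) of each of the 10 members, with filled points for the Ramos library and open points for the Ramos640 library, 1 library per cell line. PLCG2, PLCG1, PLCL2 and PLCB3 lie close together in the 2 libraries, PLCB2 and PLCXD3 lie far to the left in Ramos640, and PLCB4 is at 0 reads in both.

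Within the β class, PLCB2 was far lower in Ramos640, while PLCB3 stayed within 1.5-fold. PLCB2, a β enzyme found mainly in blood cells, lies on chromosome 15 of GRCh37 from 40570377 to 40600136, on the minus strand. It had 103 reads in Ramos and 1 read in Ramos640, a log2 ratio of -5.41 with an interval from -11.6 to -3.80. An equal level would have given 79.1 reads in Ramos640. As a plain ratio of normalized reads, PLCB2 was 79.1-fold lower, with an interval from 13.9-fold to 3154-fold, and a single read leaves this ratio poorly defined. PLCB3, the β enzyme with most reads in both libraries, had 922 and 687 reads (log2 ratio -0.043, interval from -0.19 to 0.10), an interval that includes 0. With the GC trend removed PLCB3 came to -0.26, outside that interval. PLCB1 had 43 and 23 reads (-0.51, interval from -1.32 to 0.24), too few to tell its level apart in the 2 libraries. PLCB4, which lies 99.5 kb from PLCB1 on chromosome 20, had 0 reads in both libraries, and a count of 0 allows up to 3 reads.

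As a description of the same reads, PLCB2 held 9.64% of the 1068 reads on β genes in Ramos (exact interval from 7.94% to 11.6%) and 0.141% of 711 reads in Ramos640 (from 0.00356% to 0.781%). The share of PLCB3 was 86.3% in Ramos (84.1% to 88.3%) and 96.6% in Ramos640 (95.02% to 97.8%), while that of PLCB1 was 4.03% and 3.23%, with overlapping intervals. The shares of a class sum to the whole, so the share of PLCB3 is larger where that of PLCB2 is smaller.

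The γ enzymes are the ones that the B-cell receptor uses, and both were abundant in the 2 libraries. PLCG2 (chromosome 16 from 81812884 to 81996290) gave 22813 reads for Ramos and 16188 for Ramos640, a log2 ratio of -0.11 (interval from -0.14 to -0.085). PLCG1 (chromosome 20 from 39765600 to 39825441) had 6415 and 5421 reads and a log2 ratio of 0.14 (0.086 to 0.19). Both values are within 1.5-fold. The direction for PLCG2 was the same under the other scalings, while PLCG1 came to 0.058 with total counts and to -0.0010 once the trend over GC content was removed. Of the reads on the γ genes, PLCG2 took 78.1% in Ramos (77.6% to 78.5%) and 74.9% in Ramos640 (74.3% to 75.5%). A share within a library does not depend on the scaling of the libraries, but it can depend on GC content. With the GC trend removed the log2 ratios of PLCG1 and PLCG2 were closer, at -0.0010 and -0.085. PLCG1 shares 268 exon bases with ZHX3 on the opposite strand (890 and 712 reads), and whether the counting used strand is not given in the sources used here.

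The δ enzymes had few reads, and both members were lower in Ramos640. PLCD1 (chromosome 3 from 38048987 to 38071133) gave 527 reads for Ramos and 300 for Ramos640, a log2 ratio of -0.43 (interval from -0.64 to -0.22), within 1.5-fold. With the GC trend removed it came to -0.62, past that fold. PLCD3 (chromosome 17 from 43186327 to 43210721) had 50 and 12 reads, a log2 ratio of -1.61 (interval from -2.72 to -0.75) and a 3.20-fold lower level by the plain ratio (1.68-fold to 6.601-fold). Genes with so few reads pass the fold often. Of the 5101 genes with 10 to 99 reads, 30% were lower and 26.9% higher by more than 1.5-fold, against 12.6% and 9.94% of the 13677 genes with at least 100 reads. PLCD3 also shares 58 exon bases with NMT1 (7286 and 7214 reads) and 124 with ACBD4 (202 and 111 reads), both on the opposite strand, so that its few reads are uncertain.

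PLCXD3 (chromosome 5 from 41307054 to 41510703, minus strand) differed most. It gave 350 reads for Ramos and 2 for Ramos640, a log2 ratio of -6.55 (interval from -10.1 to -5.21), and an equal level would have given 268.8 reads in Ramos640. The plain ratio was 134-fold lower, with an interval from 36.9-fold to 1114-fold. In the order of all 18778 log2 ratios, PLCXD3 was the 6th from the bottom and PLCB2 the 14th. Of the 12418 genes whose Ramos count reached 100 reads, 10 had no more than 3 reads in Ramos640 (0.0805%), PLCB2 and PLCXD3 included. Both were chosen in part because they had almost no reads in Ramos640, so these places restate that choice. Among PLCXD1, PLCXD2 and PLCXD3, the genes named for an X domain alone, PLCXD3 held 22.2% of 1579 reads in Ramos (20.1% to 24.3%) and 0.239% of 837 in Ramos640 (0.0290% to 0.860%). The rest came almost wholly from PLCXD1, which is not among the 10 members. In contrast, PLCL2 (chromosome 3 from 16844159 to 17132096) gave 1922 reads for Ramos and 1767 for Ramos640, a log2 ratio of 0.26 (interval from 0.17 to 0.35), and its direction was the same under all 5 alternatives run for it.

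**Figure D2:**
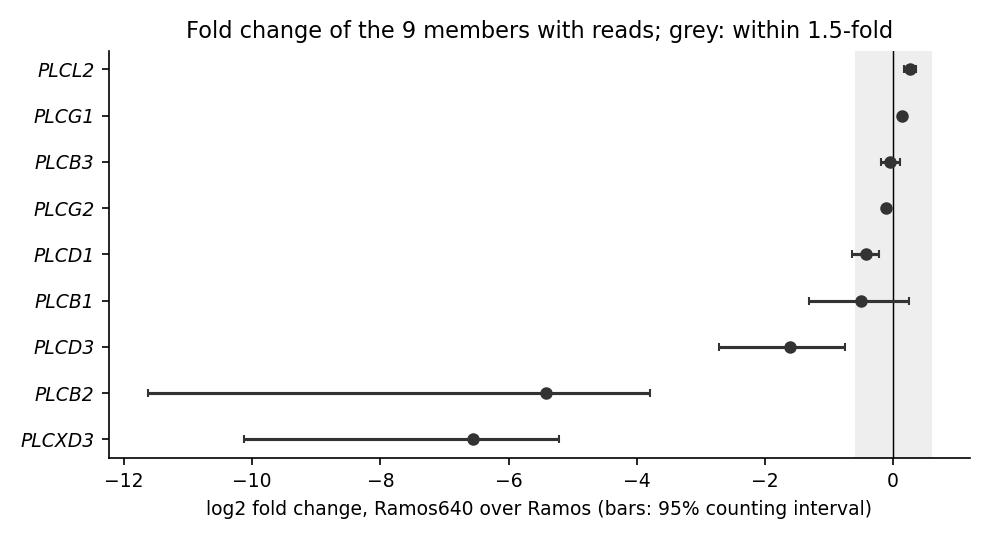
Log2 fold change (log2 ratio) of Ramos640 over Ramos for the 9 members with reads (points), with bars for the 95% counting interval and a grey band for changes within 1.5-fold. PLCXD3 and PLCB2 lie at -6.55 and -5.41, PLCD3 at -1.61, and the other 6 members lie inside the band.

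PLCXD3 and PLCD3, the members past 1.5-fold for which a sequence was at hand, had start regions of different base composition. Of the 10 members, 6 had an entry in the RefSeq promoter table (GRCh38.p14), which covers the bases around a gene's start, most of them before it. PLCB1, PLCB2, PLCB4 and PLCD1 were not matched. The sequences of PLCXD3 and PLCD3, both past 1.5-fold, are shown with that of PLCG1, which stayed within it, 5′ to 3′ on the strand of the gene and with each CpG in capitals. They lie at chr5:41510552-41510851 (minus strand), chr17:45132466-45132765 (minus strand) and chr20:41137293-41137592 (plus strand).
PLCXD3: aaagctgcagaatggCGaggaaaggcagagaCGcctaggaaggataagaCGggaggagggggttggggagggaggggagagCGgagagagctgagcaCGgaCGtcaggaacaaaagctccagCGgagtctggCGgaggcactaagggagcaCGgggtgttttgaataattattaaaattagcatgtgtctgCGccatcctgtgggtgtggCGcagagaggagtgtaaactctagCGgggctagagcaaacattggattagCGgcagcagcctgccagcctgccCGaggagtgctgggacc
PLCD3: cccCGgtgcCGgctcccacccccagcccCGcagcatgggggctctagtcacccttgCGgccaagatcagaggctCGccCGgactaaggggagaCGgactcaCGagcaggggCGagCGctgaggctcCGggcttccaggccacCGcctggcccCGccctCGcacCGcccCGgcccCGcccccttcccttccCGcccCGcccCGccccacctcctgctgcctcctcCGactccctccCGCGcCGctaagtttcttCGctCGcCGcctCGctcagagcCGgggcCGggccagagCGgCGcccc
PLCG1: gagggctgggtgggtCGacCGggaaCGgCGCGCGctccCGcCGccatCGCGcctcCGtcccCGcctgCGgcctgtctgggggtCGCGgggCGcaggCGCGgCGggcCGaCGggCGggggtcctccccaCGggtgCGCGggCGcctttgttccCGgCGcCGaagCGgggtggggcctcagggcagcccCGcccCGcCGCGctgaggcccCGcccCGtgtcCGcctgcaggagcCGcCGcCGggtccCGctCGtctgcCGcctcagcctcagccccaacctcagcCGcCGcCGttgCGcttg
The PLCXD3 region holds 14 CpG, equal to the median of 14 over all 34961 regions of the table, and its GC content is 57.7%. PLCD3 holds 32 CpG (GC content 76.3%) and PLCG1 holds 47 (81.0%), more than 97.6% of all regions. The TATA box (TATAAA on either strand, in 11.5% of all regions) is in none of the 3. The GC box (GGGCGG or CCGCCC, in 45.0% of all regions) occurs 6 times for PLCD3 and 3 times for PLCG1 and not for PLCXD3. A CAAT box (CCAAT or ATTGG, in 34.6% of all regions) occurs once for PLCXD3 and in neither of the others. The other members within 1.5-fold had both CpG-poor and CpG-rich regions, with 8 CpG for PLCG2, 37 for PLCB3, and 39 and 3 for the 2 regions of PLCL2. The ETS core searched for (CGGAAG or CTTCCG, in 19.4% of all regions) is in none of the 3. The first 3 letters of the ETS core can overlap the last 3 of the GC box, and a match is a description of the sequence only.

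To compare members with each other, reads were divided by the length of the exons of each gene and by the reads of the library. This level per length was 32.7 RPKM (reads per kilobase of exon, scaled to the reads of the library) for PLCG2 in Ramos, followed by PLCG1 (17.5), PLCL2 (9.82), PLCB3 (4.89), PLCD1 (3.30), PLCXD3 (1.19), PLCB2 (0.369), PLCD3 (0.195) and PLCB1 (0.0650). The Poisson intervals of neighbours in this order do not overlap in Ramos. In Ramos640 the first 5 kept their places, at 28.6, 18.2, 11.1, 4.49 and 2.32 RPKM. PLCD3 (0.0576), PLCB1 (0.0428), PLCXD3 (0.00841) and PLCB2 (0.00441) followed, and among these 4 the intervals of each neighbouring pair overlap. With the longest transcript as the length, the order was the same in Ramos, and PLCB1 stood before PLCD3 in Ramos640. For PLCB4 the 3 reads that a count of 0 allows correspond to 0.00365 RPKM in Ramos and 0.0045 RPKM in Ramos640.

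**Figure D3:**
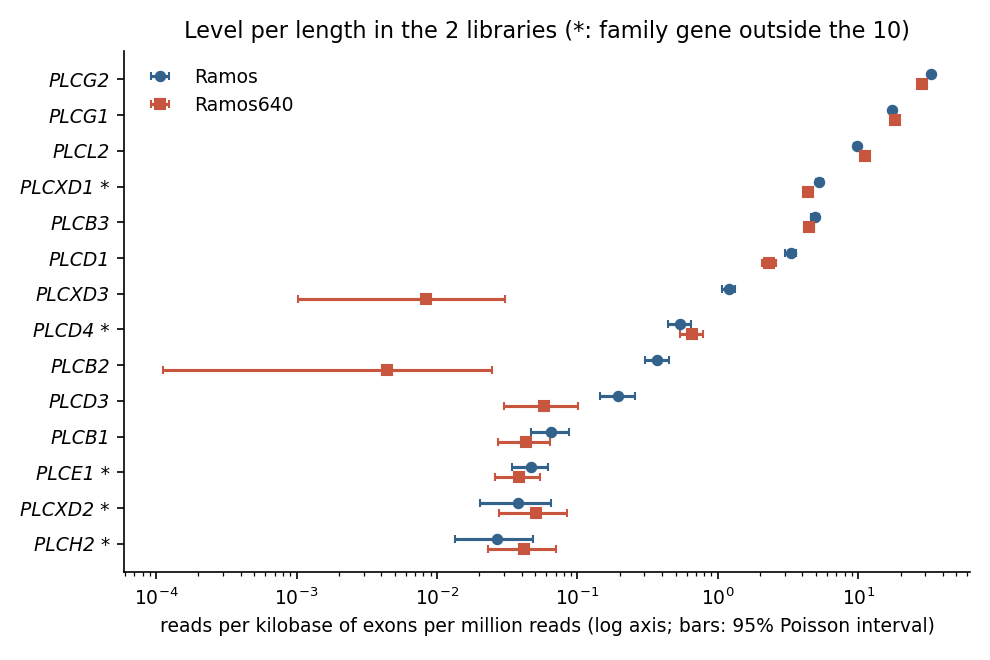
Level per length (RPKM, log axis) of the 14 family genes with reads, with circles for Ramos, squares for Ramos640 and bars for the 95% Poisson interval of the reads; a star marks the 5 genes outside the 10 members. PLCG2 leads in both libraries, and PLCXD3 and PLCB2 move from 1.19 and 0.369 RPKM in Ramos to the lowest places in Ramos640.

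PLCG2 was at the 90.4th percentile of levels in Ramos, among the protein-coding genes that reached 10 reads, and PLCG1 was at the 82.2nd. PLCXD3 and PLCB2 were low already in Ramos, at the 28.6th and 16.4th percentile. Summed over the 18 genes of the family, the level per length was 76.0 RPKM in Ramos and 70.0 RPKM in Ramos640. RPKM divides by the total reads of each library and not by the size factors. Total counts moved the median log2 ratio of all genes by -0.080, so the 2 sums are not on the scale of the log2 ratios. The γ genes made up 66.1% of this sum in Ramos and 66.9% in Ramos640, the β genes 7.01% and 6.48%, and the δ genes 5.31% and 4.32%. PLCG2 alone made up 43.1% and 40.9% of the sum. PLCB2 made up 0.485% and PLCXD3 1.57% of the sum in Ramos.

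Of the other 8 genes of the family, 5 had at least 10 reads, and none was lower by more than 1.5-fold, beside 17.3% of all genes. PLCH1, PLCL1 and PLCZ1 had no reads in either library. PLCXD1, which lies in the pseudoautosomal region, gave 1216 reads for Ramos and 821 for Ramos640 (log2 ratio -0.19, interval from -0.32 to -0.057). PLCD4 had 118 and 116 reads (0.35), PLCE1, an enzyme controlled by Ras-like GTPases, had 48 and 32 (-0.20), PLCXD2 had 13 and 14 (0.45) and PLCH2 had 11 and 14 (0.67), and the intervals of these 4 include 0. PLCH2 was thus the one family gene past 1.5-fold upward, on 25 reads in all, beside 14.6% of all genes. PLCD4 shares 1964 exon bases with ZNF142 on the opposite strand (1334 and 1318 reads).

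Genes next to PLCB2 and PLCXD3 were examined to see whether they differed with them. PAK6, which ends 0.688 kb from PLCB2, showed 142 and 114 reads (log2 ratio 0.064, interval from -0.30 to 0.43). BUB1B had 7090 and 5213 reads (-0.063) and BMF had 637 and 824 (0.75). On the other side lie C15orf52 (26 and 9 reads, -1.08), DISP2 (42 and 24, -0.41) and C15orf23 (2384 and 1622, -0.17). Within 1.5 Mb of PLCB2, 36 protein-coding genes had at least 10 reads, with a median log2 ratio of -0.011. By more than 1.5-fold, 4 were lower and 3 higher, beside 17.3% and 14.6% of all genes. The 4 lower genes all had fewer than 100 reads, and LTK was lowest (16 and 1 reads, -2.81).

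Around PLCXD3 the nearest genes with reads are farther away. OXCT1 lies 219 kb from it and had 2125 and 1553 reads (-0.071, interval from -0.17 to 0.024). C5orf51 (-0.23) and FBXO4 (-0.39) follow on the same side, and CARD6 (-0.45), RPL37 (0.20) and PRKAA1 (-0.38) lie on the other. Of the 8 protein-coding genes within 1.5 Mb, PTGER4 was the one past 1.5-fold (22 and 3 reads, -2.20), beside 31.9% of all genes. The median log2 ratio of the 8 was -0.39, beside -0.015 over all genes with at least 10 reads. The intervals of PTGER4, PRKAA1, FBXO4 and TTC33 (-0.47, named after its value was seen) lay below 0. That of RPL37 lay above 0, and those of the others included 0. The log2 ratios of the genes around PLCB1 and PLCB4 on chromosome 20 ran from -0.43 (TMX4) to 0.12 (C20orf94) for the 3 nearest genes on each side, PLCB1 itself left out.

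**Figure D4:**
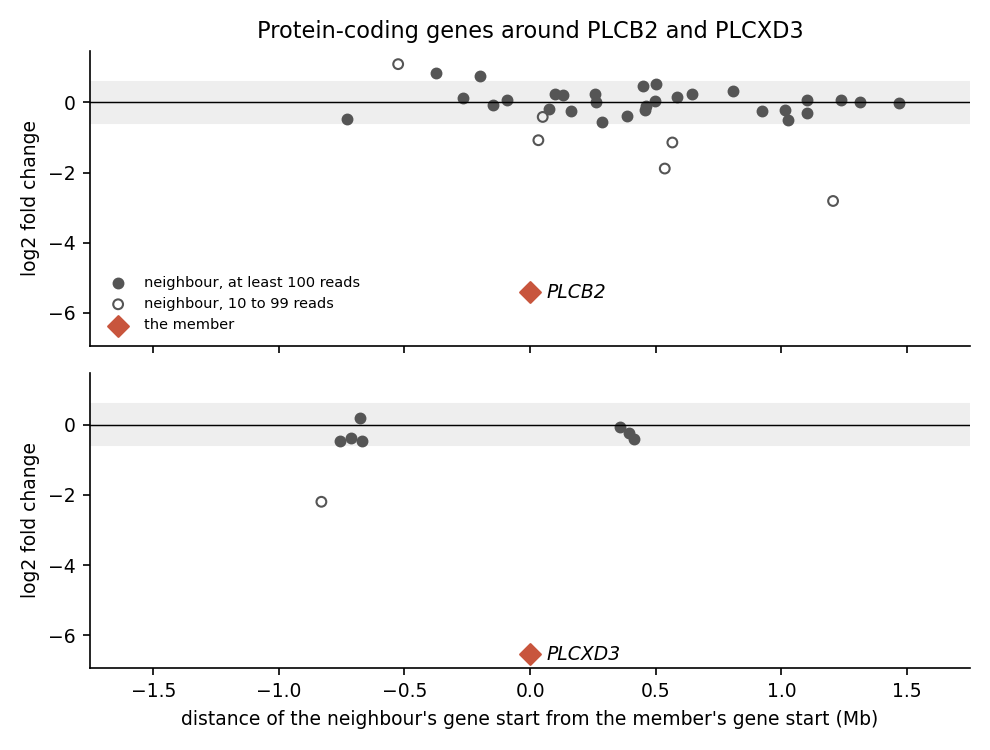
Log2 fold change (log2 ratio) of the protein-coding genes within 1.5 Mb of PLCB2 (upper panel) and PLCXD3 (lower panel), plotted by the distance between gene starts in Mb, with filled points for at least 100 reads, open points for 10 to 99 reads and a grey band within 1.5-fold. The diamonds of PLCB2 and PLCXD3, at -5.41 and -6.55, stand apart from 36 and 8 neighbours, whose lowest values are -2.81 and -2.20.

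With 2 libraries, the pattern of a gene is 1 ratio. Of the genes whose Ramos count reached 100 reads, those with the log2 ratio nearest to that of PLCB2 were TOX (-5.27, 694 and 13 reads), CCDC50 (-5.57, 362 and 5) and IQGAP2 (-5.17, 886 and 18). Nearest to PLCXD3 were CNKSR2 (-6.49, 219 and 1 reads), TLL1 (-6.62, 111 and 0) and CD99 (-5.67, 454 and 6). CD99 lay 0.88 from PLCXD3, and its value is closer to the -5.41 of PLCB2. The value of TLL1 depends on the pseudocount, since it had no reads in Ramos640.

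The genes that lead to PLCγ from the B-cell receptor were present in both libraries. All 10 examined had at least 10 reads, 1 was higher and 1 lower by more than 1.5-fold, and their median log2 ratio was -0.0078. Of all genes, 14.6% were higher and 17.3% lower by this fold. CD79B, a signalling chain of the receptor, had 69495 reads in Ramos and 82890 in Ramos640 (0.64). With total counts no gene of this list was higher by that fold. TEC, a kinase related to BTK, had 724 and 253 reads (-1.13). The direct partners of PLCγ2, named after their values were seen, lay close to 0, with log2 ratios of 0.014 for SYK (interval from -0.019 to 0.047), -0.080 for BTK (-0.13 to -0.025) and 0.041 for BLNK (-0.036 to 0.12). Other genes of the list, also named after their values were seen, lay farther from 0 but within 1.5-fold. LYN had 9716 and 5018 reads (-0.57, interval from -0.62 to -0.52), while CD79A (0.57) and BLK (0.38) were above 0.

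Of the 18 G protein genes that lead to PLCβ, 14 had at least 10 reads, 4 were lower and 1 was higher by more than 1.5-fold, with a median of -0.41, beside 17.3% lower and 14.6% higher of all genes. The lower genes numbered 3 with at least 100 reads and 5 with at least 1 read. RGS16, which shortens the signal of Gq and Gi subunits, had 1567 reads in Ramos and 2567 in Ramos640 (1.09). The γ subunits GNG7 (23 and 6 reads, -1.43) and GNG2 (835 and 292, -1.13) were lowest. The other 2 lower genes were RGS13 (12457 and 5559 reads) and RGS2 (1363 and 662), named after their values were seen. Of the α subunits of the Gq family, also named after their values were seen, GNAQ and GNA14 are listed at 0 in both libraries, GNA15 had 1 read in Ramos and GNA11 had 84 and 71 reads (0.351 and 0.366 RPKM). GNAI2, a Gi subunit, was far above these at 63.9 and 46.3 RPKM, and was lower in Ramos640 by 0.38 on the log2 scale (interval from -0.42 to -0.35). How reads with several matches were counted is not given in the sources used here. Whether the counts of 0 for GNAQ and GNA14 reflect the cells or the counting was not tested.

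The genes that supply the substrate PIP2 and handle the product IP3 came next. For each list of this paragraph, the shares to compare are 14.6% higher and 17.3% lower of all genes past 1.5-fold. For PIP2 supply, 15 of 16 genes had at least 10 reads, none was higher and 2 were lower by more than 1.5-fold, with a median of 0.14. These were PIP5K1B, a kinase that makes PIP2 (466 and 159 reads, -1.17), and PI4K2B (2225 and 1138 reads), whose -0.59 is just past the fold. In the IP3 branch, 9 of 10 genes had at least 10 reads, 2 were higher and none was lower, with a median of -0.14. INPP1, a phosphatase of inositol phosphates, had 19 and 32 reads (1.09), and ITPKB, which phosphorylates IP3, had 1654 and 1955 (0.62). The receptors of IP3, chosen after their values were seen, had log2 ratios of -0.15 (ITPR1), -0.32 (ITPR2) and 0.30 (ITPR3), and ITPR3 led by level per length with 27.7 and 32.2 RPKM. The 9 genes of calmodulin, calcineurin and NFAT all had at least 10 reads and stayed within 1.5-fold, with a median of -0.25. With total counts, 2 of them were lower by that fold.

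Among the targets and consumers of DAG, 19 of 23 genes had at least 10 reads, 5 were lower and 1 was higher by more than 1.5-fold, with a median of -0.055, beside the same 17.3% and 14.6% of all genes. PRKCB, which encodes PKCβ, had 216 reads in Ramos and 0 in Ramos640, at least 55.3-fold lower by the floor of 3 reads in that library, which does not count the error of the 216 reads. The counting interval of its log2 ratio, which does, has its upper end at -5.48. With PRKCB set to the bound by the floor, the median could not change, since PRKCB stays the lowest gene of the list. RASGRP1, a DAG-regulated activator of Ras, had 1275 and 118 reads (-3.04, interval from -3.34 to -2.78). RASGRP4 was the higher gene, with 5 and 14 reads (1.66). Other PKC genes of the list, named after their values were seen, differed in direction. PRKCH had 88 and 17 reads (-1.94) and was also past the fold, PRKCE (-0.24) and PRKCQ (-0.25) were below 0 and within it, and PRKCA (0.26) and PRKCD (0.23) were above 0 and within it.

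**Figure D5:**
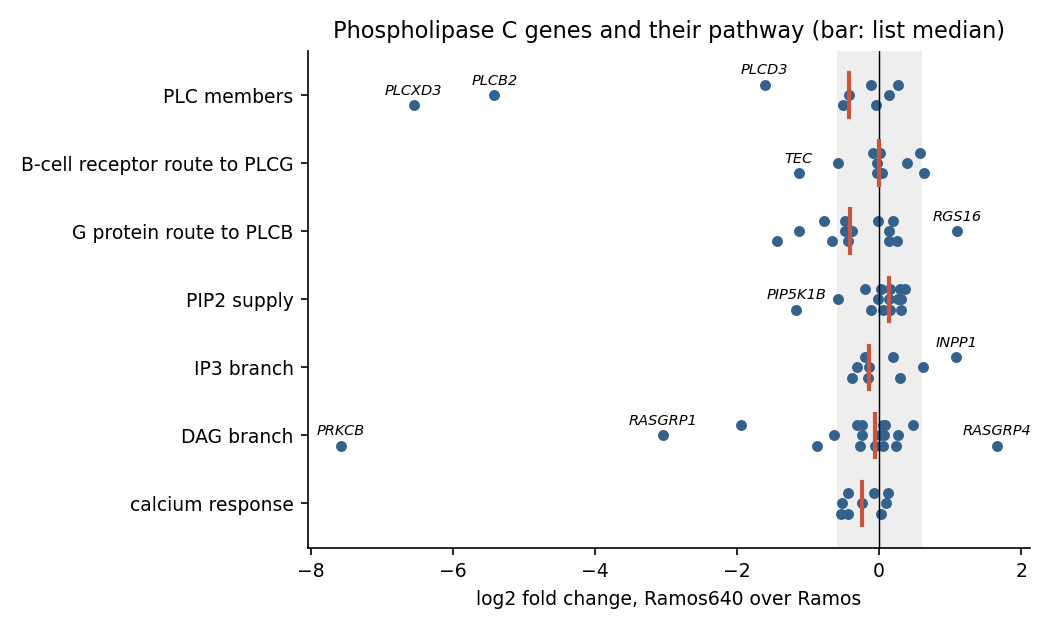
Log2 fold change (log2 ratio) of the PLC members and of 6 pathway lists for genes with at least 10 reads (points), with the median of each list as a red bar and a grey band within 1.5-fold. Most points lie near 0, PLCXD3, PLCB2, RASGRP1 and PRKCB lie farthest to the left, and the place of PRKCB, with 0 reads in Ramos640, depends on the pseudocount.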

How the data were processed

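RNA of Ramos and Ramos640 cells was pooled over 3 passages per cell line and made into 1 library each with an Ion RNA-seq kit. Per the study's methods, the authors removed adaptor sequences and aligned reads with MapSplice to GRCh37, the build in the labels. The deposited values are raw counts of reads per gene, without normalization. The counting program, its annotation and its handling of strand and of reads with several matches are not given in the sources used here, and overlapping genes are therefore uncertain.

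Counts were scaled by median-of-ratios size factors, because the study used DEseq. TMM factors (edgeR 4.0.16) and total counts were alternatives. A gene counted as examined with at least 10 reads in both libraries together. With 1 library per cell line no dispersion can be estimated, so no test was run and no p-value is given. Python 3.11.15 with scipy 1.17.1 gave the intervals. They were checked on counts simulated with counting error only, which cannot show how cultures or libraries of a cell line vary. A fold against a library at 0 used a floor of 3 reads (0.0789 CPM in Ramos, 0.0972 CPM in Ramos640). Exon lengths, GC content and positions came from GENCODE v44lift37 on GRCh37, matched by symbol for 26511 rows and by an older symbol for 2302. Of the genes examined, 84.2% were matched. Level per length used the union of exons, with the longest transcript as the alternative. Promoter sequences are from RefSeq (GRCh38.p14).

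The members and gene lists were chosen with earlier results of these data known. Genes named were all members and other family genes, the 2 largest rises and falls past 1.5-fold of each pathway list, the 3 nearest protein-coding genes with at least 10 reads on each side of PLCB1, PLCB2, PLCB4 and PLCXD3, the 3 genes nearest in fold to PLCB2 and PLCXD3, and the most abundant markers.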

Additional observations from a re-analysis of the deposited data

How the results depend on the processing

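No result of a member changed its sign past 1.5-fold under the alternatives run, and with 1 library per cell line no replicate could be left out. No paired analysis was possible because each cell line has 1 library. For the log2 ratios of the 9 members with reads, 39 of 45 alternative values stayed inside the counting interval of the main value. With a pseudocount of 10, PLCB2 came to -3.17 and PLCXD3 to -4.69, since a larger pseudocount shrinks a fold against few reads. PLCD1 passed 1.5-fold with the GC trend removed (-0.62). With total counts PLCG1 came to 0.058 and PLCG2 to -0.19, and with the GC trend removed PLCG1 came to -0.0010 and PLCB3 to -0.26. The median of the members was -0.11 with at least 100 reads, a setting that leaves out PLCB1 and PLCD3. Counted by intervals that exclude 0 instead of a fold, 2 members were higher and 5 lower, beside 29.6% and 31.6% of all genes.

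Counts of the pathway lists are small and moved by 1 or 2 genes. With total counts, the B-cell receptor list had 0 higher and 2 lower genes, the IP3 branch 1 higher and the calcium response 2 lower. With a pseudocount of 10, PIP2 supply had 1 lower gene. With at least 1 read, the G protein list and the DAG branch each had 2 higher genes, and with at least 100 reads the IP3 branch had 1 and the DAG branch 0. The share of PLCG2 in the family's level per length was 56.1% in Ramos and 53.7% in Ramos640 with the longest transcript as length. Total counts moved the median of all genes by -0.080. For no other change was the cause tested.

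Depth limits the values of PLCB1, PLCD3 and PLCH2, and a single read sets the size of the PLCB2 ratio.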

Other observations

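Other enzymes that act on phospholipids, in lists written after the data were examined, were looked at beside the PLC genes. Of 5 phospholipase D genes, 2 had at least 10 reads, PLD3 (1061 reads in Ramos and 1051 in Ramos640, log2 ratio 0.37) and PLD2 (385 and 296 reads, 0.0018). Of 9 phospholipase A2 genes, 4 had at least 10 reads, and none was past 1.5-fold, beside 31.9% of all genes. The most abundant of the 4 was PLA2G15, a lysosomal enzyme, with 2475 and 2635 reads (0.47, interval from 0.39 to 0.55). PLA2G12A was lower (1120 and 615 reads, -0.48).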
